A study of Mus musculus with 7 samples.

Results

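The collagen chains of the neonatal mouse ventricle are described here in 2 BALB/c substrains. They were taken as every gene of the table whose symbol is Col, a type number, the letter a and a chain number, which gave 44 chains among 17404 genes. RNA-Seq was performed on total RNA of postnatal day 4 (P4) ventricles, each library being made from a pool of pups' hearts. There were 3 libraries of BALB/cByJ, which carries a deletion in Cyth1, and 4 libraries of BALB/cJ, which carries a retroviral insertion in Zhx2. Both are inbred substrains and no treatment was given, so any allele that separates them is part of the comparison. The sexes of the pooled pups and the litters are not given, and p-values measure only the spread between pools. RNA of Y-linked genes was higher in every BALB/cByJ pool than in any BALB/cJ pool. A difference of strain and a difference in the sex mix of the pools therefore cannot be told apart. The values are normalized and were treated as scaled for depth and transcript length. They are called expression values below, since FPKM and TPM cannot be told apart here. Read numbers are unknown, so no interval from counts is given.

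Collagens are extracellular proteins built from alpha chains wound into a triple helix, in which glycine recurs in each triplet of residues. Fibrillar collagens form the cables that carry tension between muscle layers of the heart. Type IV collagen forms the sheet-like network of the basement membranes around cardiomyocytes and vessels, type VI forms beaded filaments between both, and the remaining types decorate fibrils, span membranes or line basement membranes. In the heart fibroblasts are the main source of fibrillar collagen, whereas endothelial and mural cells, which wrap vessels, contribute much of the basement membrane. In such bulk tissue fewer cells of a type and less RNA per cell cannot be told apart.

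The libraries matched their strain labels. Cyth1 had 0.19, 0.10 and 0.13 in the BALB/cByJ libraries and 25.80, 26.65, 25.77 and 26.98 in the BALB/cJ libraries (here and below in the order of their numbers), and Zhx2 had 7.98, 7.03 and 5.47 in BALB/cByJ against 0.25 to 0.51 in BALB/cJ. All libraries held between 11815 and 11979 genes with a value of at least 1, and the summed cardiomyocyte markers reached at least 42550 and the summed endothelial markers at least 301 in each. Of the cell types that could bring other collagens into the dissection, Schwann cells and valve or cartilage tissue left little trace, since Sox10 stayed at or below 0.22 and Acan between 0.08 and 0.35. The atrial gene Myl7 ranged from 6.37 to 41.55 over the 7 libraries.

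No collagen chain passed the test between the strains. Of 44 chains, 29 had a mean of at least 0.5 over the 7 libraries and were tested together with all other genes that did, 12715 in all. By limma with Benjamini-Hochberg adjustment over all genes tested, 0 of the 29 were called at an adjusted p under 0.05, where 1.65% of all genes tested were called. At an unadjusted p under 0.05 limma gave 1 of 29 chains (3.45%), Col1a1, against 18.3% of all genes tested. The strains overlapped in all 29, whereas in 17.0% of all genes tested they did not. The fitted difference, BALB/cByJ minus BALB/cJ on the scale of log2(value + 1), was above 0 in 11 chains and below 0 in 18, with a median of -0.0995 beside -0.073 for all genes tested. The 95% intervals of the single chains lay between -0.87 and 0.53, and 28 of the 29 held 0. A chain therefore could still differ within those bounds.

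In its collagen levels 1 BALB/cJ pool stood apart from the rest. BALB/cJ 1 had the highest value of all 7 libraries in 19 of the 29 tested chains, where 14.8% of all genes tested did. At the other end BALB/cJ 4 had the lowest value in 14 chains, where 8.06% of all genes tested did. The median deviation of the tested chains from their own mean, in log2 units, was -0.14, 0.058 and -0.012 for BALB/cByJ, against 0.47, 0.0090, -0.072 and -0.25 for BALB/cJ. Among the 13 chains with a mean of at least 10, 12 were highest in BALB/cJ 1, and among the 16 lower ones 7 were. Summed over all 44 chains, collagen took 0.172%, 0.227% and 0.179% of all listed values in BALB/cByJ, against 0.338%, 0.206%, 0.202% and 0.171% in BALB/cJ. The total of all listed values was itself lowest in BALB/cJ 1, at 543020 against 570820 to 628980 elsewhere, which widens its share. The summed collagen value alone was 1066.7, 1297.8 and 1124.9 in BALB/cByJ and 1836.3, 1296.7, 1178.7 and 1001.5 in BALB/cJ. The heat map of these deviations shows BALB/cJ 1 high across most fibrillar, type IV, type VI and XV/XVIII chains and not in the membrane-spanning chains or type XXVI. Without that library the median of the tested chains was 0.059, with 18 above 0 and 11 below, and again none was called by limma (3 had an unadjusted p under 0.05).

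**Figure D1:**
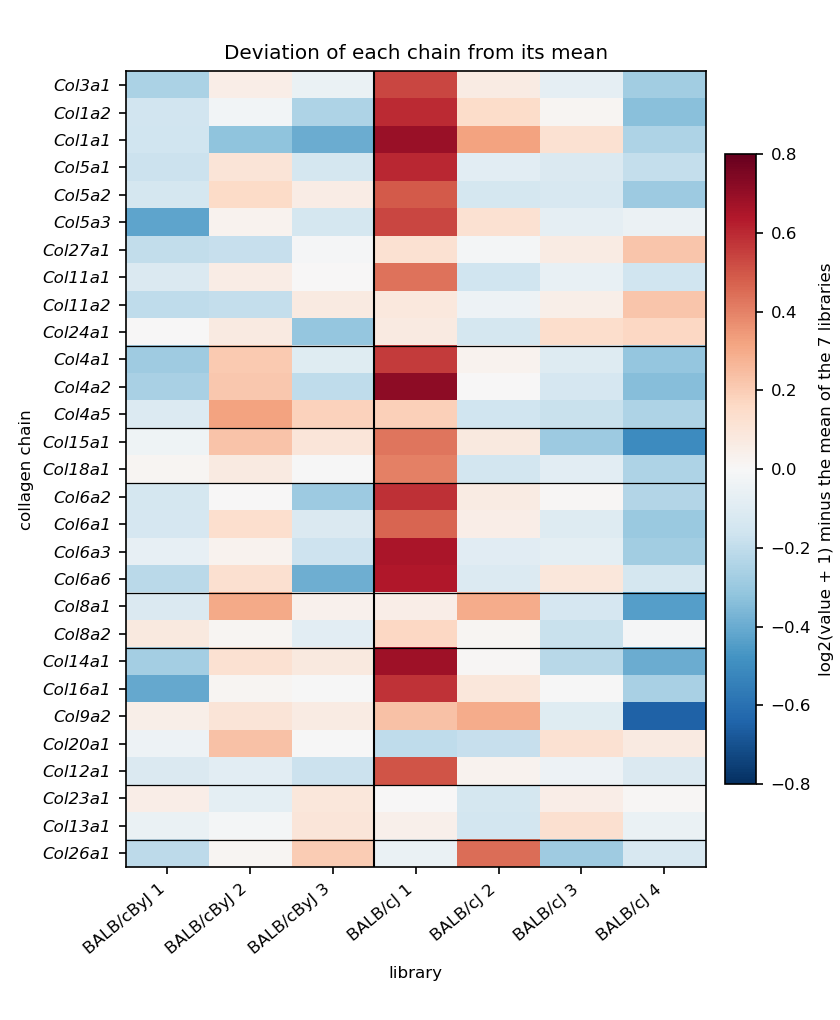
Each tile gives log2(value + 1) of a chain (rows, by class) in a library (columns, BALB/cByJ left of BALB/cJ) minus the mean of that chain over the 7 libraries, from blue for lower to red for higher, with the scale held between -0.8 and 0.8. BALB/cJ 1 is the red column, with a median deviation of 0.47, and BALB/cJ 4 the bluest, with -0.25.

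Several values moved with that pool, and their part in its collagen level was not tested. The fibroblast markers were not among them: the summed value of the 9 fibroblast markers was 1537, 1157 and 1398 in BALB/cByJ and 1201, 1207, 1190 and 1102 in BALB/cJ, and 1 of the 9 was highest in BALB/cJ 1. The 7 mural cell markers summed to 627, 597 and 549 in BALB/cByJ and to 1184, 801, 879 and 972 in BALB/cJ, with 5 of 7 highest in BALB/cJ 1. Most of each sum came from 1 gene, Acta2. Rgs5, the next in level, was highest in BALB/cJ 4 (231.94, against 175.18 in BALB/cJ 1), and Kcnj8 was highest in BALB/cJ 2. In this list Acta2, smooth muscle actin, was called lower in BALB/cByJ (332.01, 339.42 and 306.37 against 885.40, 495.06, 584.39 and 637.09, log2 difference -0.96, adjusted p of 0.00909 by limma). Its adjusted p by limma was 0.00349 without BALB/cJ 1, but the call was lost without BALB/cByJ 3 (0.0711), without the filter on low values (0.0889) and with Y-linked RNA as a covariate (0.174). Of the 9 cardiomyocyte markers 4 were highest in BALB/cJ 1 and 5 lowest in BALB/cJ 4, and their median deviation was -0.017, 0.12 and 0.082 for BALB/cByJ, against 0.14, -0.033, -0.085 and -0.23 for BALB/cJ. Among them Myh6, the alpha myosin heavy chain of heart muscle, had its highest value in BALB/cJ 1 and its lowest in BALB/cJ 4. Myl2, the most abundant of the 9, went the other way, with its lowest value in BALB/cJ 1 (18096.35). The summed value of the 9 was 48818 in BALB/cJ 1 and highest in BALB/cByJ 3, at 56033. The 8 endothelial and endocardial markers summed to 334, 341 and 319 in BALB/cByJ and to 365, 313, 327 and 301 in BALB/cJ. Of these 8, 2 were highest in BALB/cJ 1, Cdh5 and Kdr, and 3 were lowest in BALB/cJ 4. The genes Eif2s3y, Kdm5d, Uty and Ddx3y are Y-linked. Their summed value was 128, 87.6 and 80.2 in BALB/cByJ and 0.04, 14.8, 22.6 and 37.6 in BALB/cJ. The collagen-rich pool was thus also the one with the least Y-linked RNA. By limma all 4 were called higher in BALB/cByJ, where 1.65% of all genes tested were called, so Y-linked RNA went with strain as well. Collagen transcripts are long and GC-rich, with a median of 5970 bases and 56.7% GC among the tested chains against 3488 bases and 50.3% among all tested genes with a matched transcript. The 427 other tested genes of at least 5000 bases and 55% GC had a median deviation of 0.15 in BALB/cJ 1 and between -0.24 and 0.10 elsewhere. After the trend with length and GC was removed from each library, the chains still stood at 0.36 in BALB/cJ 1 and at -0.29 in BALB/cJ 4.

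**Figure D2:**
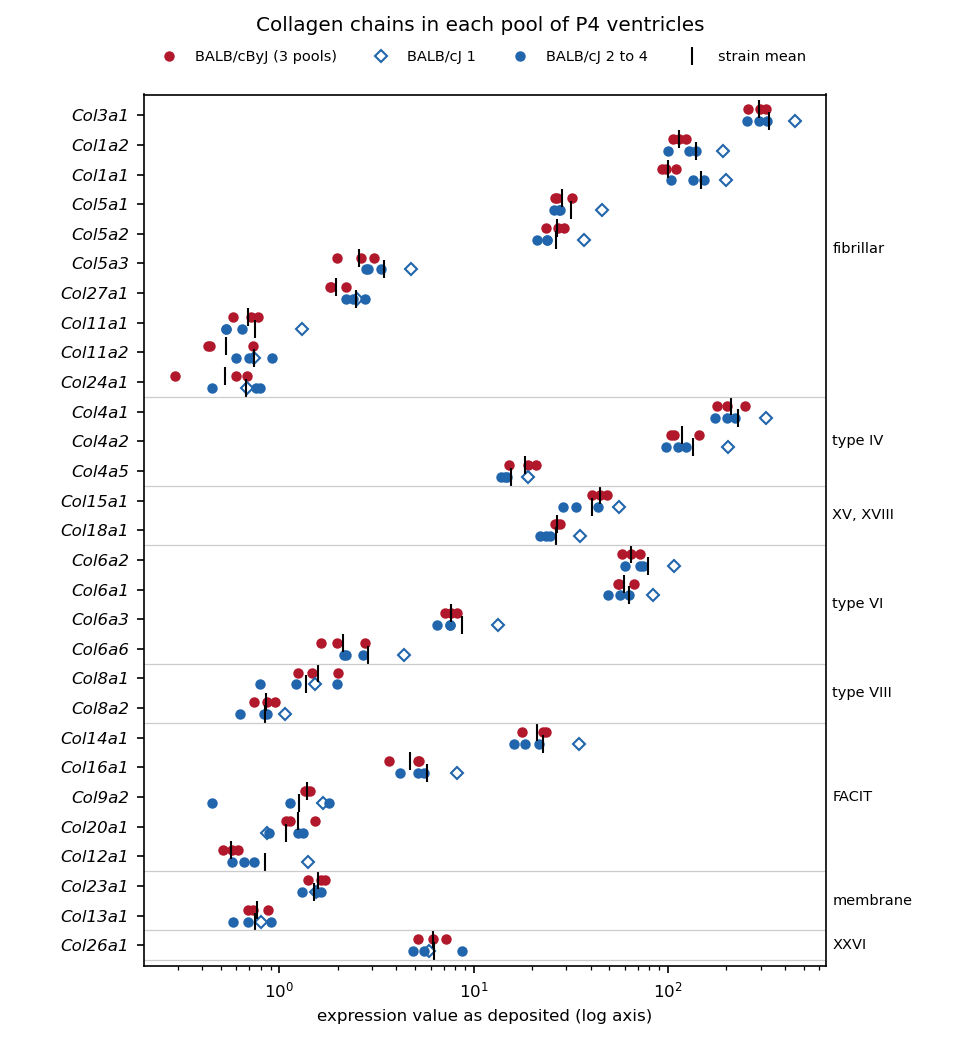
Each row is a tested chain, by class, and each point the deposited expression value of 1 library on a log axis. BALB/cByJ points (red) lie above BALB/cJ points (blue) of the same chain, the open diamond is BALB/cJ 1 and the vertical ticks are strain means. The open diamond is the rightmost point in 19 of 29 chains.

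The fibrillar collagens were the most abundant class. All 11 genes are listed and 10 passed the filter, Col2a1, the cartilage chain, being at 0.05 or less in every library. Their summed value was 538, 612 and 558 in BALB/cByJ and 932, 677, 615 and 513 in BALB/cJ, a ratio of means of 0.832 that became 0.946 without BALB/cJ 1. The fibrillar genes share an exon unit of 54 bases that codes for glycine followed by any 2 residues, repeated 6 times. In the GENCODE M39 canonical transcripts (GRCm39) 305 of the 625 internal coding exons of the fibrillar genes (48.8%) were 54 bases long, against 0.441% of the 140297 such exons of all other genes, and 84.0% were a multiple of 9 bases long, against 13.5%. In type IV genes 47.2% were a multiple of 9. The first exon of 54 bases that opens with a glycine codon is printed for the main chains of types I, III and V. It shows the repeat that these transcripts share, 5′ to 3′ on the coding strand. The glycine codon that opens each triplet of codons is in capitals, and other glycine codons are not.
Col1a1 (chromosome 11, exon 8): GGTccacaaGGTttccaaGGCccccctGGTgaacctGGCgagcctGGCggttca
Col1a2 (chromosome 6, exon 8): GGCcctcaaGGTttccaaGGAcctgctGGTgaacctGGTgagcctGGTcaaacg
Col3a1 (chromosome 1, exon 6): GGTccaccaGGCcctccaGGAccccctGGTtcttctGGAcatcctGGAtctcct
Col5a1 (chromosome 2, exon 15): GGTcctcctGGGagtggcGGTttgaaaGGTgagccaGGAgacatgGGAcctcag
Col5a2 (chromosome 1, exon 6): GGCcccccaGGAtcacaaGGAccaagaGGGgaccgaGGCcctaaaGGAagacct

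Col3a1, whose chain forms the homotrimeric type III fibrils of distensible tissue, was the highest collagen of all. It had 259.03, 321.24 and 298.27 in BALB/cByJ and 448.73, 323.95, 294.37 and 255.02 in BALB/cJ. The strains overlapped, with BALB/cJ holding both the highest and the lowest library. The log2 difference was -0.15 ± 0.16 (SE, 95% interval from -0.49 to 0.20, adjusted p of 0.654 by limma), and without BALB/cJ 1 it was 0.0098. Col3a1 lies at chr1:45311538-45349706 (GRCm38.p6), next to Col5a2 at chr1:45374331-45503282.

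Type I collagen, the stiff fibril former, is made of a pair of chains from Col1a1 (chr11:94936224-94953042) and a single one from Col1a2 (chr6:4505618-4541543). Col1a1 had 110.10, 98.28 and 93.18 in BALB/cByJ and 199.20, 154.01, 134.42 and 103.52 in BALB/cJ, so that only BALB/cByJ 1 and BALB/cJ 4 were out of order. Its means were 100.5 ± 8.68 in BALB/cByJ (SD, n = 3) and 147.8 ± 40.1 in BALB/cJ (SD, n = 4). The log2 difference was -0.52 ± 0.17 (SE, 95% interval from -0.87 to -0.16), the largest of the 29 chains in size, with an adjusted p of 0.128 by limma, so it was not called. Without BALB/cJ 1 it was -0.36 with an adjusted p of 0.175, without BALB/cJ 4 its adjusted p was 0.0579, and over all alternatives the adjusted p ran from 0.0579 to 0.862. Col1a2 had 113.56, 124.38 and 106.05 in BALB/cByJ and 191.47, 139.79, 127.65 and 99.77 in BALB/cJ, with BALB/cJ 4 below every BALB/cByJ library. Its log2 difference was -0.25 (adjusted p of 0.439 by limma), and -0.082 without BALB/cJ 1.

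Because types I and III lead the class, the bases just before the starts of Col1a2 and Col3a1 are shown. Both stretches hold a motif that was searched for, and the bases before Col1a1 are not printed. The printed bases were read from RefSeq promoters (GRCm38.p6), on the plus strand and ending at the base before the start. A CCAAT or TATAAA match is in capitals.
Col1a2 (chr6:4505498-4505617): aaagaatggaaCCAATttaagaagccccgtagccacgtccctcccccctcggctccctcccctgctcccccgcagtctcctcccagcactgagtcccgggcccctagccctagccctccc
Col3a1 (chr1:45311418-45311537): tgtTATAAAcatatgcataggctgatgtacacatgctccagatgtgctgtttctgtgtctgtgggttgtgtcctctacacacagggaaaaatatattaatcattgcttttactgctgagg
The CCAAT of Col1a2 begins 109 bases before the start and the TATAAA of Col3a1 begins 117 bases before it. Of the 35 chains with a promoter in that table, 34.3% held CCAAT on either strand in the 250 bases before the start, against 34.5% of 27025 promoters. TATAAA was held by 14.3% of the chains and 13.0% of all promoters, and GGGCGG by 60.0% and 32.9%. These are matches of letters and not shown binding sites.

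Type V chains, which sit inside type I fibrils and set their width, had the same outlying pool. Col5a1 had 26.26, 31.91 and 26.79 in BALB/cByJ and 45.59, 27.96, 27.38 and 25.84 in BALB/cJ, where BALB/cJ 1 lay far above and the other BALB/cJ pools lay within the range of BALB/cByJ or just below it. Col5a2 had 23.65, 29.23 and 27.32 in BALB/cByJ and 37.17, 23.72, 23.90 and 21.21 in BALB/cJ. The log2 differences were -0.12 and 0.040, and 0.059 and 0.21 without BALB/cJ 1. Col5a3, a minor type V chain, had 1.98, 3.08 and 2.63 in BALB/cByJ and 4.78, 3.34, 2.80 and 2.86 in BALB/cJ, with a log2 difference of -0.31 (adjusted p of 0.310 by limma).

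The remaining fibrillar chains were low. Col27a1, a fibrillar collagen known from cartilage, had 1.83, 1.85 and 2.21 in BALB/cByJ and 2.52, 2.20, 2.39 and 2.77 in BALB/cJ, overlapping only where BALB/cByJ 3 passed BALB/cJ 2 (log2 difference -0.23, adjusted p of 0.314 by limma, and -0.22 without BALB/cJ 1). In this chain BALB/cJ 4, the lowest pool in 14 of the tested chains, was the highest. Col11a1, which takes the place of type V in cartilage fibrils, had 0.58, 0.78 and 0.71 in BALB/cByJ and 1.31, 0.53, 0.64 and 0.53 in BALB/cJ. Col11a2 and Col24a1 ranged from 0.29 to 0.92 with overlapping strains.

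Type IV was the second class in abundance. Col4a1 and Col4a2 code for the chains that trimerize together in nearly all basement membranes. Their genes lie head to head on chromosome 8 and overlap at their starts, Col4a1 at chr8:11198423-11312889 on the minus strand and Col4a2 at chr8:11312805-11449287 on the plus strand. The bases between the starts that the RefSeq promoter table gives for each gene, a shorter stretch than the overlap of the whole gene records, are printed to show how close the pair is (GRCm38.p6, plus strand).
Col4a1 and Col4a2 (chr8:11312805-11312826): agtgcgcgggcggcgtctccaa
Col4a1 had 177.90, 250.04 and 202.31 in BALB/cByJ and 319.38, 220.47, 201.14 and 174.35 in BALB/cJ. Col4a2 had 103.61, 144.24 and 107.46 in BALB/cByJ and 204.46, 124.08, 113.09 and 97.65 in BALB/cJ. In both genes BALB/cJ 1 was highest, BALB/cByJ 2 next and BALB/cJ 4 lowest, and the strains overlapped. The log2 differences were -0.0995 (adjusted p of 0.795 by limma) and -0.14 (0.728 by limma), and 0.073 and 0.076 without BALB/cJ 1.

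Col4a5 (chrX:141475370-141689236), whose chain joins those of Col4a3 and Col4a4 or of Col4a6 in kidney and other specialized membranes, behaved otherwise. It had 15.28, 20.99 and 18.98 in BALB/cByJ and 19.10, 14.76, 14.53 and 13.81 in BALB/cJ, and it was the only chain with a mean of at least 10 whose highest library was not BALB/cJ 1. The 3 other BALB/cJ pools lay below every BALB/cByJ pool. Its log2 difference was 0.23 (95% interval from -0.05 to 0.51, adjusted p of 0.361 by limma), the largest above 0 among the chains, and 0.33 without BALB/cJ 1. Its partners did not pass the filter. Col4a4 had 0.40, 0.38 and 0.29 in BALB/cByJ and 0.62, 0.55, 0.45 and 0.42 in BALB/cJ, which do not overlap but were not tested. Among the genes that were tested, 17.0% did not overlap. Col4a3 ranged from 0.14 to 0.42, and Col4a6 from 0 to 0.05.

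Types XV and XVIII lie at the outer face of basement membranes and carry C-terminal domains that are released as restin and endostatin. Col15a1 had 40.43, 48.76 and 44.48 in BALB/cByJ and 56.24, 43.84, 33.82 and 28.93 in BALB/cJ, where the BALB/cByJ pools lay between the extremes of BALB/cJ. Col18a1 had 26.69, 27.81 and 26.29 in BALB/cByJ and 35.21, 23.69, 24.82 and 22.04 in BALB/cJ, where the BALB/cByJ pools were close together and 3 BALB/cJ pools lay below them. The log2 differences were 0.17 (adjusted p of 0.629 by limma) and 0.048 (0.879 by limma), and 0.33 and 0.19 without BALB/cJ 1. Col7a1, the anchoring fibril of skin, was at 0.15 or less.

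Type VI collagen assembles from 1 chain each of Col6a1, Col6a2 and a longer chain, Col6a3 in most tissues. Col6a2 had 64.56, 71.49 and 58.12 in BALB/cByJ and 107.46, 74.64, 71.84 and 60.35 in BALB/cJ. Col6a1, its neighbor on chromosome 10, had 55.06, 66.66 and 55.87 in BALB/cByJ and 84.25, 63.04, 56.37 and 49.10 in BALB/cJ. Col6a3 had 7.68, 8.25 and 7.09 in BALB/cByJ and 13.27, 7.51, 7.59 and 6.50 in BALB/cJ. All of these overlapped between the strains, and BALB/cJ 1 was the highest library in each. Col6a6, an alternative long chain, had 1.97, 2.77 and 1.64 in BALB/cByJ and 4.39, 2.20, 2.68 and 2.14 in BALB/cJ. The log2 differences of Col6a2, Col6a1, Col6a3 and Col6a6 were -0.25, -0.070, -0.12 and -0.28, with adjusted p-values from 0.404 to 0.836 by limma, and without BALB/cJ 1 they were -0.089, 0.076, 0.082 and -0.11. Col6a4 and Col6a5 were at 0.07 or less.

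The fibril-associated collagens with interrupted helices (FACIT) bind to the surface of fibrils. Col14a1, which coats type I fibrils, was the main one, with 17.65, 23.45 and 22.81 in BALB/cByJ and 35.01, 21.65, 18.31 and 16.12 in BALB/cJ. Col16a1 had 3.65, 5.23 and 5.15 in BALB/cByJ and 8.20, 5.56, 5.16 and 4.16 in BALB/cJ, and Col12a1, the tendon and fascia partner of type I, had 0.57, 0.61 and 0.51 in BALB/cByJ and 1.41, 0.74, 0.66 and 0.57 in BALB/cJ. In these 3 genes BALB/cJ 1 stood above the other pools. The log2 differences were -0.041, -0.23 and -0.22, and 0.18, -0.076 and -0.083 without BALB/cJ 1. Col9a2, known from cartilage, had 1.35, 1.44 and 1.38 in BALB/cByJ and 1.68, 1.79, 1.13 and 0.45 in BALB/cJ, and Col20a1 had 1.08, 1.52 and 1.13 in BALB/cByJ and 0.86, 0.88, 1.33 and 1.25 in BALB/cJ. Neither was highest in BALB/cJ 1, and their log2 differences were 0.12 and 0.11. Col9a1, Col9a3, Col19a1 and Col22a1 did not pass the filter, at 0.32 or less.

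The short-chain, membrane-spanning and unclassified collagens were low, and of the tested ones only Col8a2 was highest in BALB/cJ 1. The network former Col8a1, found in vessel walls, had 1.24, 2.0 and 1.48 in BALB/cByJ and 1.52, 1.98, 1.21 and 0.79 in BALB/cJ, and its partner Col8a2 had 0.95, 0.86 and 0.74 in BALB/cByJ and 1.07, 0.86, 0.63 and 0.83 in BALB/cJ. Of the transmembrane collagens, Col23a1 had 1.64, 1.41 and 1.71 in BALB/cByJ and 1.55, 1.31, 1.64 and 1.56 in BALB/cJ, and Col13a1, which occurs at muscle and nerve contacts, had 0.69, 0.73 and 0.87 in BALB/cByJ and 0.80, 0.58, 0.91 and 0.69 in BALB/cJ. In both, BALB/cJ 1 lay within the range of the other libraries. Col26a1 had 5.17, 6.20 and 7.21 in BALB/cByJ and 5.88, 8.73, 4.86 and 5.52 in BALB/cJ, with BALB/cJ 2 highest. The log2 differences of these 5 chains lay between 0.0055 and 0.13, each with an adjusted p of at least 0.701 by limma. Col10a1 and Col17a1 were at 0.08 or less, Col25a1 between 0.24 and 0.36 and Col28a1 between 0.06 and 0.24.

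**Figure D3:**
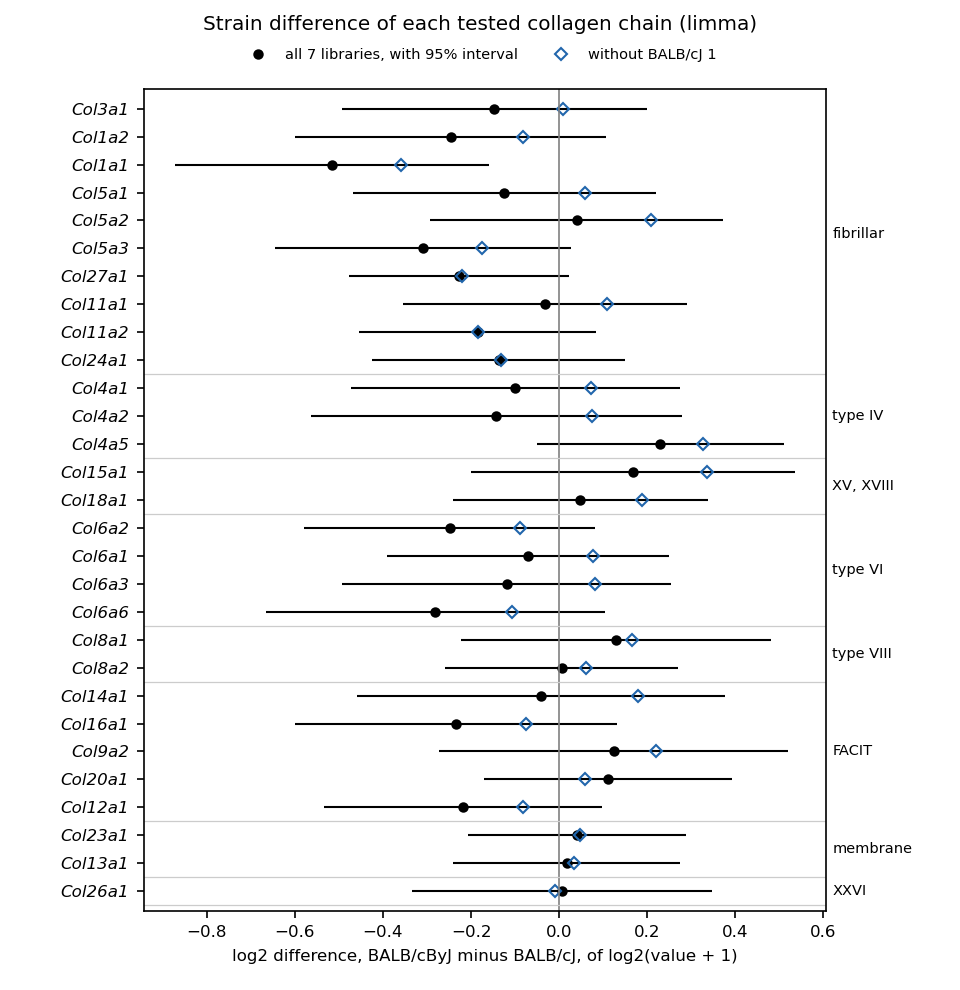
Black points give the log2 difference, BALB/cByJ minus BALB/cJ, of each tested chain with its 95% interval from limma, and open diamonds the same difference without BALB/cJ 1. The interval of Col1a1 (-0.87 to -0.16) is the one that does not hold 0, and most diamonds of the fibrillar, type IV, type VI and FACIT chains lie to the right of the black points.

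Ratios between partner chains, which cancel a level that both share, are given as a description without a test. The ratio of Col1a1 to Col1a2 was 0.970, 0.790 and 0.879 in BALB/cByJ and 1.04, 1.10, 1.05 and 1.04 in BALB/cJ, so the strains did not overlap, and BALB/cJ 1 was no longer apart. Among all genes tested, the ratio to Col1a2 did not overlap between the strains in 4.42%. The ratio of Col6a1 to Col6a2 was 0.853, 0.932 and 0.961 in BALB/cByJ and 0.784, 0.845, 0.785 and 0.814 in BALB/cJ, again without overlap, where 5.89% of genes had a ratio to Col6a2 that did not overlap. The ratio of Col4a1 to Col4a2 was 1.72, 1.73 and 1.88 in BALB/cByJ and 1.56, 1.78, 1.78 and 1.79 in BALB/cJ, and the strains overlapped. The other pairs were chosen after their values were seen. The ratio of Col5a1 to Col5a2 was 1.11, 1.09 and 0.981 in BALB/cByJ and 1.23, 1.18, 1.15 and 1.22 in BALB/cJ (3.41% of genes do not overlap in the ratio to Col5a2), and that of Col4a5 to Col4a1 was 0.0859, 0.0839 and 0.0938 in BALB/cByJ and 0.0598, 0.0669, 0.0722 and 0.0792 in BALB/cJ (2.38% do not overlap in the ratio to Col4a1). The ratio of Col3a1 to Col1a1 was 2.35, 3.27 and 3.20 in BALB/cByJ and 2.25, 2.10, 2.19 and 2.46 in BALB/cJ, which overlap. With the trend in length and GC removed from each library, the first 5 of these kept their overlap or lack of it, whereas the ratio of Col3a1 to Col1a1 no longer overlapped. Types I and III together took 45.3%, 41.9% and 44.2% of the summed collagen value in BALB/cByJ and 45.7%, 47.6%, 47.2% and 45.8% in BALB/cJ. These do not overlap, though BALB/cByJ 1 and BALB/cJ 1 were close, while the shares of types IV, V and VI did overlap. By value 17.0% of all genes tested did not overlap, and no such background was taken for shares of a sum.

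**Figure D4:**
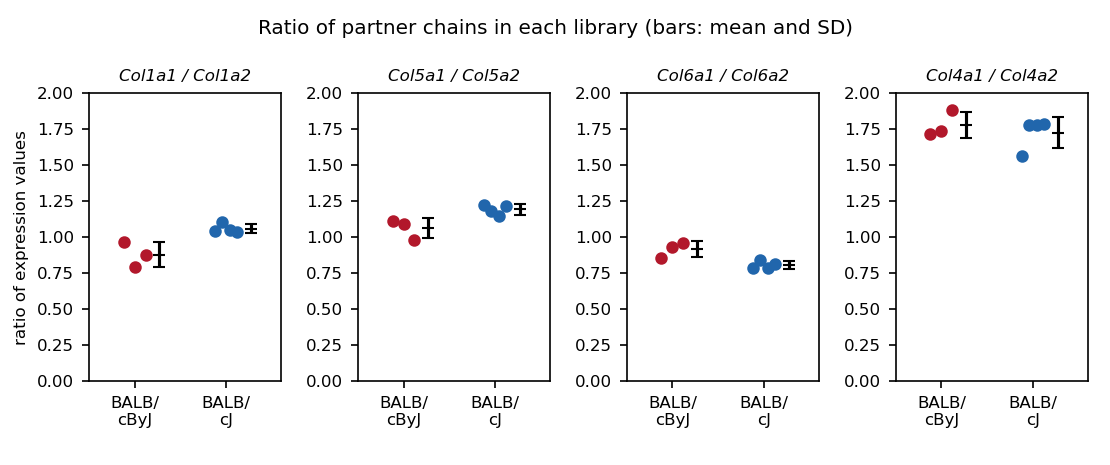
Each point is the ratio of the deposited values of partner chains in 1 library, BALB/cByJ (red) left of BALB/cJ (blue), with the mean and SD of the libraries as black bars. The ratio of Col1a1 to Col1a2 lies between 0.790 and 0.970 in BALB/cByJ and between 1.04 and 1.10 in BALB/cJ, while that of Col4a1 to Col4a2 overlaps.

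The machinery that turns these transcripts into matrix was read from lists of other genes, none of which held a called gene in the fit of all 7 libraries. The counts at an unadjusted p under 0.05 in these lists are to be read beside the 18.3% of all genes tested. BALB/cJ 1 was the highest library in 8 of 15 tested hydroxylation and glycosylation genes, 4 of 10 folding and secretion genes and 7 of 13 processing genes. It was highest in 3 of 7 receptor genes and 0 of 7 proteoglycans, where 14.8% of all genes tested were highest in that pool. Hydroxylation and glycosylation enzymes modify the chains in the endoplasmic reticulum. Of 15 tested genes limma called 0, 6 (40%) had an unadjusted p under 0.05, and the sum was 496, 505 and 542 in BALB/cByJ and 540, 550, 507 and 496 in BALB/cJ. The lysyl hydroxylase Plod1 had 48.31, 49.04 and 43.73 in BALB/cByJ and 42.22, 35.70, 38.30 and 32.49 in BALB/cJ (log2 difference 0.34, adjusted p of 0.123 by limma). With the length and GC trend removed it was called, with an adjusted p of 0.0187 by limma, as was P3h4, which acts in a complex with lysyl hydroxylase (0.0376). That fit was chosen after seeing the data and called 244 of 12192 genes, 168 of them higher in BALB/cByJ, as both genes were. The prolyl hydroxylases P4ha3 and P3h3 had log2 differences of -0.55 and -0.33 (adjusted p of 0.142 and 0.154 by limma), and the abundant P4hb and Ppib, a disulfide isomerase and a cyclophilin, had -0.11 and 0.034.

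Chaperones and export factors fold and carry procollagen. Of 10 tested genes limma called 0 and 1 (10%) had an unadjusted p under 0.05, Creb3l1, a transcription factor of the secretory pathway (log2 difference -0.34, adjusted p of 0.156 by limma). The collagen chaperone Serpinh1 had a mean of 238 in BALB/cByJ and 235 in BALB/cJ. Neither it nor the matrix protein Sparc peaked in BALB/cJ 1, whereas 4 of the 10 genes did.

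Outside the cell, propeptides are cut off and the chains are crosslinked. Of 13 tested genes limma called 0 and 3 (23.1%) had an unadjusted p under 0.05. Lox, the lysyl oxidase that crosslinks collagen and elastin, had 7.11, 6.49 and 6.72 in BALB/cByJ and 8.79, 8.22, 8.65 and 8.91 in BALB/cJ (log2 difference -0.31, adjusted p of 0.132 by limma). The strains did not overlap in Lox, as in 17.0% of all genes tested. The procollagen C-proteinase Bmp1 and its enhancer Pcolce2 had log2 differences of -0.23 and -0.49 (adjusted p of 0.220 and 0.148 by limma). Pxdn, the peroxidase that crosslinks type IV collagen, was highest in BALB/cJ 1 at 60.31, as Col4a1 was, against 47.70 to 52.53 in the other libraries.

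Receptors and proteoglycans that bind collagen gave no call in that fit either. Of 7 tested receptor genes limma called 0 and 1 (14.3%) had an unadjusted p under 0.05, Adgrg1, the type III collagen receptor (log2 difference 0.38, adjusted p of 0.141 by limma, and 0.0323 with the length and GC trend removed). Ddr2 and Itgb1 had log2 differences of -0.23 and 0.21. Of 7 tested proteoglycans limma called 0 and 1 (14.3%) had an unadjusted p under 0.05. This was Dcn, decorin, which limits fibril growth and also marks fibroblasts, with 493.04, 364.27 and 469.49 in BALB/cByJ and 312.51, 361.74, 320.43 and 284.36 in BALB/cJ (log2 difference 0.46, adjusted p of 0.0914 by limma, and 0.04997 without BALB/cByJ 2). Every BALB/cByJ pool was higher than every BALB/cJ pool, the other direction from Col1a1, and BALB/cJ 1 did not stand apart. In 17.0% of all genes tested the strains did not overlap in 1 direction or the other. Fmod, Bgn and Lum had log2 differences of -0.44, -0.14 and 0.13.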

How the data were processed

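Each library was made from a pool of P4 ventricles and BGI Genomics prepared and sequenced the libraries. For 17404 genes in 3 BALB/cByJ and 4 BALB/cJ libraries the authors deposited a normalized signal, rounded to 2 decimals. It was treated here as normalized for depth and length. Aligner, quantification and the choice between FPKM and TPM: not given in the sources used here. Per the submitters' processing notes, the build was mm10. The 12715 genes whose mean over the 7 libraries was at least 0.5 were fitted on the scale log2(value + 1) with limma 3.58.1 (R 4.3.3), using a strain term alone and a variance trend. P-values were adjusted over all genes by Benjamini-Hochberg and calls made at 0.05. The fit was tested on simulated data. Since the table holds no counts, no count test was run. A pseudocount of 1 understates changes of low genes, and a missing depth leaves the precision of low values unknown.

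The chains, gene lists and tests were chosen with earlier results of these data known. Values are given for the chains of each class with the highest mean or smallest p, for partner pairs and, in other lists, for the genes with the smallest p or highest mean. Coordinates and promoters are RefSeq GRCm38.p6, the assembly of mm10 (44 chains matched by gene ID, 35 with a promoter). Exons, lengths and GC are from GENCODE M39 canonical transcripts on GRCm39. Alternatives were a pseudocount of 0.1, no filter or a mean of at least 2, quantile and TMM scaling (trimming 30% and 5%), a block for the replicate number, the summed Y-linked level or the fibroblast marker level as a covariate, no variance trend, and leaving out each library. The fit on 6 libraries without a block and the removal of a length and GC trend were chosen after seeing the data. Summaries and plots used pandas 2.3.3, numpy 2.4.6 and matplotlib 3.10.9 under Python 3.11.15.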

Additional observations from a re-analysis of the deposited data

Results flagged for a closer look

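In 4 of 37 groups of collagen values BALB/cJ 1 stood far from the other BALB/cJ libraries, by the gap to the nearest library as a share of the range of the 4 libraries, which passed Dixon's 95% critical value. The share was 0.893 for Col5a1, 0.831 for Col5a2, 0.859 for Col11a1 and 0.839 for Col6a3. Chance gives such a gap in about 1 of 20 groups, and the chains are not independent of each other.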

How the results depend on the processing

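No collagen chain was called by limma under any alternative. Of all genes 210 were called, and 39 without a filter, 46 with Y-linked RNA as a covariate, 82 in the 6 libraries with shared numbers and 64 to 187 when a library was left out. Calls higher in BALB/cByJ were 98 of 210 (46.7%), but 68.8% with quantile scaling, 70.6% with TMM scaling and 68.9% with the length and GC trend removed. The median difference of all genes was -0.073, and -0.013 with quantile scaling. The median of the chains moved to 0.25 with the Y-linked covariate, where 11 chains had an unadjusted p under 0.05 and the lowest adjusted p was 0.0767, and lay between -0.18 and 0.059 when a library was left out. The ratio of summed fibrillar values was 0.768 to 0.946 then, the higher one without BALB/cJ 1. The Y-linked level itself did not overlap between the strains, so that covariate and the strain term share information in the fit. The cause of these shifts was not tested.

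The correlations of same-numbered libraries were -0.19, -0.26 and -0.050, and those of the other pairs ran from -0.18 to 0.39. They gave no sign that the replicate numbers pair the libraries. They were taken on deviations from the strain mean in few libraries, so they cannot settle whether same-numbered libraries were handled together. With the replicate block 58 genes and 0 chains were called, against 82 genes in the same 6 libraries without it, and the call of Acta2 was lost (adjusted p of 0.0967 by limma). The block and that fit turned the sign of Col5a2 (-0.052), Col18a1 (-0.028), Col9a2 (-0.074) and Col26a1 (-0.035).

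Signs of uncalled chains turned to 0.016 for Col11a1 and 0.012 for Col14a1 with quantile scaling, and to 0.013 for Col6a1 and 0.038 for Col14a1 with TMM scaling. With the Y-linked covariate they turned to 0.32 for Col3a1, 0.24 for Col1a2, 0.37 for Col5a1, 0.081 for Col5a3, 0.34 for Col11a1, 0.41 for Col4a1, 0.48 for Col4a2, 0.20 for Col6a2, 0.36 for Col6a1, 0.42 for Col6a3, 0.17 for Col6a6, 0.60 for Col14a1, 0.25 for Col16a1, 0.15 for Col12a1 and -0.042 for Col20a1. With the length and GC trend removed they turned to 0.074 for Col5a1, 0.091 for Col11a1, 0.010 for Col24a1, 0.077 for Col4a1, 0.037 for Col4a2, 0.060 for Col6a1, 0.070 for Col6a3 and 0.086 for Col14a1. When a library was left out, the difference ran from -0.26 to 0.0098 for Col3a1, -0.21 to 0.059 for Col5a1, -0.052 to 0.21 for Col5a2, -0.090 to 0.11 for Col11a1, -0.23 to 0.073 for Col4a1, -0.29 to 0.076 for Col4a2, -0.028 to 0.19 for Col18a1, -0.18 to 0.076 for Col6a1, -0.23 to 0.082 for Col6a3, -0.053 to 0.062 for Col8a2, -0.18 to 0.18 for Col14a1, -0.074 to 0.24 for Col9a2, -0.029 to 0.062 for Col13a1 and -0.094 to 0.16 for Col26a1. Leaving out BALB/cJ 1 turned 9 chains.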
